A study of Mus musculus with 18 samples.

Results

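Hepatic gene expression was compared between FF mice fed a high-fat diet (HFD) and FF mice fed a control diet (CD), which gives the response to the diet in livers with an intact SAPS3 gene. FF mice were C57BL/6 males homozygous for a floxed allele of Ppp6r3 (Ppp6r3 fl/fl), which encodes SAPS3, a regulatory subunit of protein phosphatase 6, and they carried no Cre recombinase. From 8 weeks of age they received diets with 32.5% (HFD) or 10% (CD) of the calories from fat for 16 weeks. The labels describe the diets by their fat content only, so that other differences between the diets cannot be told apart from the fat. Members were chosen by the labels, which put 9 of the 18 mice of the series in this comparison, 4 on CD and 5 on HFD, with 1 liver library each. The other 9 mice, 4 on CD and 5 on HFD, were LKO mice, which carry the same floxed allele and in addition a Cre transgene driven by the albumin promoter, active in hepatocytes. They entered the estimate of the spread and the test of a difference between the responses of FF and LKO mice.

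The authors deposited RPKM values, the reads of a gene scaled to its length in kilobases and to the depth of the library. Of 25266 listed genes, 11090 were tested, those whose RPKM averaged 0.5 or more across the 18 mice. Snhg9 lay just inside this limit, with a mean of 0.50003 RPKM, and S1pr3 just outside it, with 0.4997 RPKM. Fold changes are differences of log2(RPKM + 1), HFD minus CD, given with their standard error (±), and understate the change of genes below about 1 RPKM. A gene was called higher or lower when its fold change was above 1.5 and its adjusted p (limma, two-sided, Benjamini-Hochberg over all tested genes) was under 0.05. Values by mouse are listed from mouse 1 to mouse 4 on CD and from mouse 1 to mouse 5 on HFD, and the order of the mice has no meaning.

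The liver takes up fatty acids from the blood and from the diet, and either oxidizes them in mitochondria and peroxisomes, stores them as triglyceride in lipid droplets, or exports them in lipoproteins. Fatty acids are ligands of PPARα, a nuclear receptor that pairs with RXR and switches on genes of fatty acid oxidation, ketone body synthesis, lipid droplets and the CYP4A enzymes. Fatty acid synthesis is driven by SREBP-1c and ChREBP, and cholesterol synthesis by SREBP-2. In mice the liver also differs between the sexes, because pulsatile growth hormone acting through STAT5B keeps many genes high in males and others low.

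The estimated depth, from the steps between low RPKM values, was 23.4 M to 32.1 M reads in CD mice and 25.2 M to 37.0 M reads in HFD mice. Between 9311 and 9496 genes reached 1 RPKM in CD mice and between 9784 and 10000 in HFD mice, and the 10 most abundant genes accounted for 23.8% to 25.6% and 20.7% to 22.9% of the summed RPKM, respectively. Across genes, Pearson's r was 0.981 to 0.993 over the 6 pairs of CD mice, 0.974 to 0.992 over the 10 pairs of HFD mice and 0.946 to 0.978 over the 20 pairs of mice on different diets. All 9 livers expressed the Y-linked genes Ddx3y (7.0 to 13.6 RPKM) and Eif2s3y (25.6 to 31.9 RPKM), with Xist at 0.0472 RPKM or less. Albumin (Alb), which marks hepatocytes, was at 21308 to 29430.0 RPKM in CD mice and 27010.0 to 35707 RPKM in HFD mice. Ppp6r3 was at 8.38, 8.82, 11 and 9.17 RPKM in CD mice and at 8.82, 7.55, 8.11, 8.47 and 8.22 RPKM in HFD mice. Its groups overlapped and it was not called (log2 fold change -0.16 ± 0.07, adjusted p = 0.135), and its mean in LKO mice was 3.99 RPKM on CD and 4.6 RPKM on HFD.

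The livers of FF mice on the 2 diets differed in many genes, most of them higher on HFD. Of the tested genes, 732 (6.60%) were called, 567 of them higher on HFD (5.11%) and 165 lower (1.49%), and the median log2 fold change over all tested genes was 0.07. Genes with higher values made up 77.5% of the calls, a share that depended on the scaling of the libraries: it was 63.5% (410 higher, 236 lower) with each library centred on its median, 65.4% (423 and 224) after quantile normalization and 84.0% (748 and 143) with all libraries at the same sum. In 2025 genes (18.3%) the values of the 2 diets did not overlap, and this held for 618 of the 732 called genes. With each of the 9 mice left out in turn, 491 genes were called every time, 386 higher and 105 lower. Most changes were moderate, with a median size of 0.83 on the log2 scale among called genes. Only 20 called genes changed by 3 or more on that scale, 8 of them higher and 12 lower. Each HFD mouse showed the response: over the genes called without it, the median distance from the CD mean, signed by the direction of the call, was 0.68 in HFD mouse 1, 1.0 in mouse 2, 0.90 in mouse 3, 0.83 in mouse 4 and 0.76 in mouse 5, against -0.13 to 0.20 in the CD mice.

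**Figure D1:**
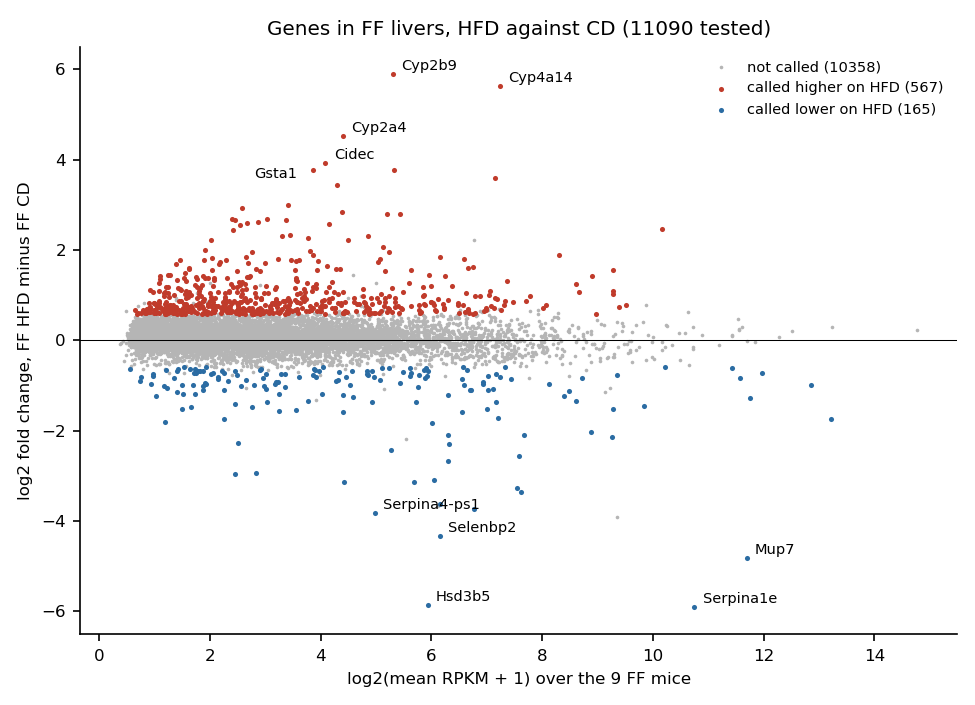
Each point is 1 of the 11090 tested genes in FF livers, with log2 of the mean RPKM plus 1 over the 9 mice on the x axis and the log2 fold change of HFD over CD on the y axis. Called genes are coloured (567 higher, 165 lower), and the 10 named genes, from Serpina1e at -5.91 to Cyp2b9 at 5.90, have the largest changes among those called with every mouse left out.

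The largest decreases were in a serpin, a steroid reductase, a selenium-binding protein, a major urinary protein and a serpin pseudogene. Serpina1e (chr12:103946931-103958975), an alpha-1 antitrypsin, was at 3169, 3272, 5356 and 3311 RPKM on CD and at 190.3, 17.5, 52.1, 77.4 and 57.7 RPKM on HFD (log2 fold change -5.91 ± 0.46, adjusted p = 4.06e-07). Hsd3b5 (chr3:98618634-98630252), a 3-ketosteroid reductase, was at 154, 96.6, 151 and 129 RPKM on CD and at 3.94, 0.0478, 0.0711, 2.26 and 2.24 RPKM on HFD (log2 fold change -5.86 ± 0.40, adjusted p = 1.87e-07). Every HFD mouse was far below every CD mouse for both genes. Selenbp2 (chr3:94693556-94704413), a selenium-binding protein, was at 150.3, 94.5, 207 and 144 RPKM on CD and at 7.28, 3.98, 5.77, 8.27 and 6.53 RPKM on HFD (log2 fold change -4.33 ± 0.41, adjusted p = 2.46e-06). Mup7 (chr4:60066469-60070475), which encodes a major urinary protein, a pheromone carrier made by the liver, was at 7486, 8669, 5377 and 4801 RPKM on CD and at 1934, 11.3, 46.7, 787 and 675 RPKM on HFD (log2 fold change -4.82 ± 1.11, adjusted p = 0.00526). HFD mouse 1 kept the highest Mup7 value of its group and HFD mouse 2 the lowest, without overlap with CD. Serpina4-ps1 (chr12:104080649-104086724), annotated as a serpin pseudogene, was at 73.7, 25.1, 86.0 and 69.2 RPKM on CD and at 3.40, 1.70, 1.3, 3.36 and 9.52 RPKM on HFD (log2 fold change -3.82 ± 0.52, adjusted p = 9.71e-05).

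The largest increases were in cytochrome P450 enzymes, a lipid droplet protein and a glutathione transferase. Cyp2b9 (chr7:26173411-26210661), a P450 of the female liver, was at 0, 0.0213, 0.0228 and 0.0210 RPKM on CD, under 1 estimated read per mouse, and at 30.4, 125, 95.6, 63.1 and 32.7 RPKM on HFD (log2 fold change 5.90 ± 0.43, adjusted p = 2.71e-07). Against a floor of 3 reads per library this is at least 969-fold higher, counting error only. Cyp4a14 (chr4:115486200-115496142), which hydroxylates the end carbon of fatty acids, was at 3.18, 3.22, 2.19 and 12.1 RPKM on CD and at 312, 392, 206, 253 and 169 RPKM on HFD (log2 fold change 5.62 ± 0.51, adjusted p = 1.65e-06). Even the highest CD mouse, mouse 4, was far below the lowest HFD mouse. Cyp2a4 (chr7:26307169-26315088), a testosterone hydroxylase of the female liver, was at 0.334, 0.136, 0.0758 and 0.481 RPKM on CD and at 7.59, 59.7, 69.0, 20.6 and 23.6 RPKM on HFD (log2 fold change 4.53 ± 0.47, adjusted p = 6.07e-06). Cidec (chr6:113424634-113435760), which fuses lipid droplets, was at 0.479, 1.0, 0.633 and 0.764 RPKM on CD and at 10.1, 35.8, 47.5, 22.2 and 25.1 RPKM on HFD (log2 fold change 3.93 ± 0.43, adjusted p = 9.94e-06). Gsta1 (chr9:78230656-78242684), a glutathione transferase, was at 0.508, 0.799, 0.414 and 0.383 RPKM on CD and at 18.2, 39.2, 41.4, 7.96 and 12.3 RPKM on HFD (log2 fold change 3.78 ± 0.45, adjusted p = 2.27e-05). That the diets did not overlap for these 10 genes was a condition of their choice. The same condition held for up to 3 genes named from each list below. Reads that match several near-identical genes were apportioned among them in the deposited values, so the values of single members of the Mup, Cyp2b, Cyp2a, Cyp4a, Gsta and Serpina1 families are uncertain.

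Most tested genes of fatty acid oxidation were higher on HFD. Of 40 tested genes of mitochondrial and peroxisomal oxidation, 22 were called higher and none lower (55.0% called, against 6.60% of all tested genes, to which the shares of the other lists below also compare), and their median log2 fold change was 0.63, against 0.07 over all tested genes. With 1 mouse left out the number was 19 to 25. The largest changes were in peroxisomal genes. Pex11a, which helps peroxisomes to divide, was at 31.7, 33.3, 21.1 and 27.6 RPKM on CD and at 82.4, 126, 98.0, 105 and 107 RPKM on HFD (log2 fold change 1.84 ± 0.18, adjusted p = 3.98e-06). Ehhadh, the bifunctional enzyme of peroxisomal oxidation, was at 55.6, 48.8, 42.4 and 43.4 RPKM on CD and at 96.1, 126, 106, 113 and 106 RPKM on HFD (log2 fold change 1.19 ± 0.17, adjusted p = 1.35e-04), and the thiolase Acaa1b (log2 fold change 1.43 ± 0.24) rose with it. Acaa1b ranged from 179 to 316 RPKM on CD and from 450.4 to 812 RPKM on HFD. Carnitine carries acyl groups across the membranes of both organelles, and its genes were higher as well. Crat, a carnitine acetyltransferase, was at 8.99, 7.18, 3.04 and 4.23 RPKM on CD and at 19.3, 28.6, 23.3, 19.7 and 15.1 RPKM on HFD (log2 fold change 1.75 ± 0.24, adjusted p = 9.46e-05). Cpt1a, which controls the entry of fatty acids into mitochondria, was at 99.5, 87.1, 81.6 and 108 RPKM on CD and at 138, 154, 155, 173 and 134 RPKM on HFD (log2 fold change 0.68 ± 0.12, adjusted p = 9.08e-04). The mitochondrial genes Cpt2 (log2 fold change 0.71), Slc25a20 (0.78), Acadm (0.91) and Decr1 (0.72) were called with changes of the same order.

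The CYP4 enzymes, which start the omega-oxidation of fatty acids in the endoplasmic reticulum, split into genes that rose and genes that fell. Of 12 tested, 4 were called higher and 2 lower (50%). Cyp4a10 was at 27.1, 21.4, 5.55 and 33.3 RPKM on CD and at 194, 249.8, 244, 267 and 224 RPKM on HFD (log2 fold change 3.60 ± 0.35, adjusted p = 4.40e-06), and Cyp4a31 and Cyp4a32 rose by 1.69 and 1.18 on the log2 scale. Cyp4a12b, a CYP4A of the male liver, moved the other way, at 55.1, 50.9, 19.7 and 35.8 RPKM on CD and at 8.52, 0.587, 1.37, 3.61 and 9.02 RPKM on HFD (log2 fold change -3.13 ± 0.50, adjusted p = 3.79e-04). Cyp4f14 was also called lower (-0.84 ± 0.19), and Cyp4a12a was not called (log2 fold change -0.79 ± 0.32, adjusted p = 0.0837).

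Acyl-CoA thioesterases, which release free fatty acids from coenzyme A, rose in 5 of 11 tested genes (45.5%), with none lower and a median log2 fold change of 0.44. Acot3, a peroxisomal member, was at 3.75, 1.81, 0.513 and 2.48 RPKM on CD and at 32.4, 47.4, 29.5, 18.5 and 31.5 RPKM on HFD (log2 fold change 3.45 ± 0.40, adjusted p = 2.14e-05). The mitochondrial Acot2 was at 1.28, 2.31, 0.778 and 2.10 RPKM on CD and at 10.1, 22.8, 16.5, 13.8 and 14.7 RPKM on HFD (log2 fold change 2.66 ± 0.26, adjusted p = 4.56e-06). The cytosolic Acot1 was at 6.4, 3.46, 1.75 and 4.0 RPKM on CD and at 26.5, 35.2, 18.4, 34.3 and 21.2 RPKM on HFD (log2 fold change 2.56 ± 0.33, adjusted p = 5.29e-05). These neighbouring genes of chromosome 12 are similar in sequence, and no overlap between diets was a condition for naming them. Acot4, another peroxisomal thioesterase of that cluster, was at 8.05, 6.58, 4.83 and 6.04 RPKM on CD and at 20.6, 25.0, 17.6, 18 and 21.4 RPKM on HFD (log2 fold change 1.55 ± 0.18, adjusted p = 1.62e-05). The fifth call, Acot9, was lost without CD mouse 4.

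Ketone body synthesis and hormones of the fasting response rose in 6 of 12 tested genes (50%), with none lower. Pdk4, a kinase that holds back the oxidation of pyruvate, was at 1.23, 0.844, 0.495 and 1.19 RPKM on CD and at 3.37, 5.99, 8.24, 6.61 and 3.87 RPKM on HFD (log2 fold change 1.73 ± 0.24, adjusted p = 1.0e-04). Fgf21, a hormone that the liver releases in fasting, was at 3.13, 2.28, 1.44 and 1.25 RPKM on CD and at 6.46, 5.84, 6.64, 6.24 and 4.61 RPKM on HFD (log2 fold change 1.24 ± 0.32, adjusted p = 0.01). Angptl4, an inhibitor of lipoprotein lipase, rose by 0.84 on the log2 scale (adjusted p = 0.0107). Ppara, the gene of PPARα, was at 31.5, 31.8, 34.0 and 41.9 RPKM on CD and at 49.5, 49.8, 45.6, 51.9 and 49.3 RPKM on HFD. The diets did not overlap for Ppara, but its fold change was under 1.5 and it was not called (log2 fold change 0.50 ± 0.11, adjusted p = 0.00539).

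**Figure D2:**
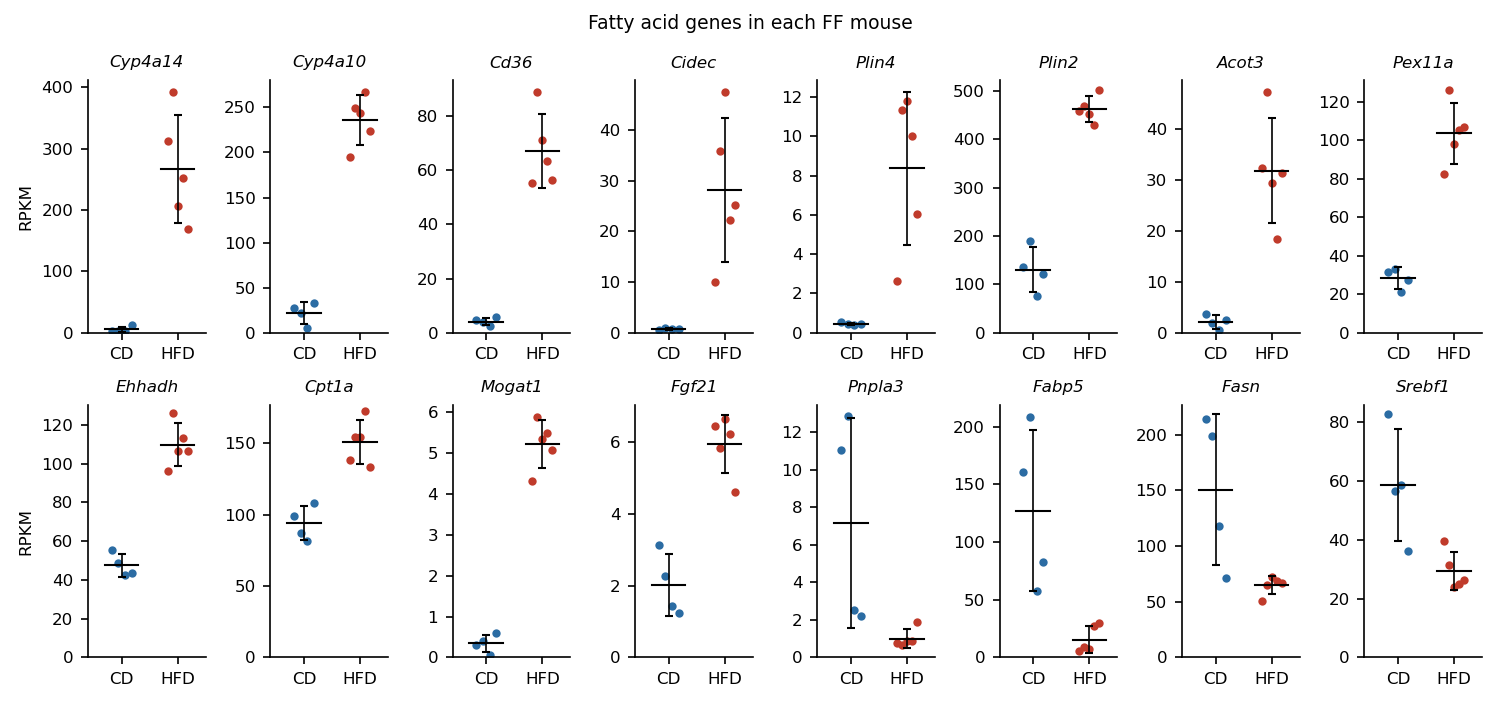
RPKM of 16 genes of fatty acid metabolism in each of the 4 CD (blue) and 5 HFD (red) FF mice, with the group mean (wide line) and SD (error bar), each panel with its own axis from 0. The diets do not overlap for the 14 genes from Cyp4a14 to Fabp5, of which Pnpla3 and Fabp5 are lower on HFD. Many of these 14 genes were named on that condition, which 18.3% of all tested genes met. For Fasn and Srebf1 the lowest CD mouse is within the range of the HFD mice.

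Coat proteins and enzymes of lipid droplets were raised on HFD in 12 of 23 tested genes (52.2%), with none lower and a median log2 fold change of 0.64 (10 to 14 with 1 mouse left out). Plin2, the main droplet coat protein of hepatocytes, was at 136, 189, 75.5 and 121 RPKM on CD and at 459, 470.0, 453, 431 and 502 RPKM on HFD (log2 fold change 1.89 ± 0.28, adjusted p = 1.78e-04). Plin4 was at 0.522, 0.454, 0.412 and 0.448 RPKM on CD and at 2.65, 11.3, 11.8, 10.0 and 6.06 RPKM on HFD (log2 fold change 2.55 ± 0.34, adjusted p = 9.10e-05). Plin2 was alike in the 5 HFD mice, while Plin4 and Cidec were lowest in HFD mouse 1 among them. Cidea, like Cidec a droplet fusion protein, was at 0, 0.0686, 0 and 0 RPKM on CD, under 2 estimated reads per mouse, and at 0.953, 6.83, 19.4, 1.86 and 11.2 RPKM on HFD, at least 66.9-fold higher than the floor of 3 reads per library (43.4-fold without HFD mouse 3). G0s2, an inhibitor of the triglyceride lipase Pnpla2, was at 38.9, 28.1, 32.0 and 65.3 RPKM on CD and at 156, 148, 119, 125 and 142 RPKM on HFD (log2 fold change 1.79 ± 0.32, adjusted p = 8.33e-04). Plin5, Fitm1, Fitm2, Lipe, Lipa and Hsd17b13 rose by 0.71 (Lipe) to 1.14 (Fitm1) on the log2 scale, and the call of Plin3 was lost without any of 4 mice.

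Several of these genes are also abundant in adipocytes. Of 8 markers of that cell type 4 were tested, of which Lipe, also a droplet gene, was called higher (log2 fold change 0.71 ± 0.13, adjusted p = 9.71e-04) and Adrb3, an adrenergic receptor, lower (log2 fold change -0.63 ± 0.15, adjusted p = 0.00729), a call lost without CD mouse 3, CD mouse 4 or HFD mouse 3. Cfd (0.76 ± 0.30) and Car3 (0.32 ± 0.17) were not called. The summed level of the list, almost all of it Car3, was 918 to 1212 RPKM on CD and 1141 to 1498 RPKM on HFD. Of the defining markers below the filter, Adipoq was at 0 RPKM in every CD mouse and at 0.0220, 0, 0.0309, 0.760 and 0 RPKM on HFD, and Lep, Plin1 and Retn were at 0 on CD and at 0.254 RPKM or less on HFD, all highest in HFD mouse 4. The part of adipocytes in the values of the droplet genes was not tested.

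Uptake and binding of fatty acids changed in 6 of 17 tested genes (35.3%), 5 higher and 1 lower. Cd36, which takes up fatty acids at the cell surface, was at 4.58, 3.88, 2.33 and 5.69 RPKM on CD and at 55.4, 89.1, 71.3, 63.6 and 56.6 RPKM on HFD (log2 fold change 3.76 ± 0.37, adjusted p = 4.44e-06). Fabp4, a fatty acid binding protein of adipocytes and macrophages, was at 4.71, 2.75, 3.83 and 5.62 RPKM on CD and at 10.8, 22.7, 23.0, 25.9 and 16.8 RPKM on HFD (log2 fold change 1.97 ± 0.28, adjusted p = 1.35e-04). Fabp5 went the opposite way, at 161, 209, 57.2 and 82.5 RPKM on CD and at 5.17, 8.70, 6.96, 26.8 and 29.8 RPKM on HFD (log2 fold change -3.10 ± 0.55, adjusted p = 9.01e-04), with every HFD mouse below every CD mouse. The abundant liver form Fabp1 was at 6107 to 9922 RPKM on CD and 9986 to 10607 RPKM on HFD and was not called (log2 fold change 0.29 ± 0.13, adjusted p = 0.117). Fabp2 was called higher (0.98 ± 0.22), and the calls of Gpihbp1 and Fabp7 were each lost without any of several mice.

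PPARα with RXR binds a direct repeat of AGGTCA with 1 base between the copies, called DR1. Promoters of these genes were searched for it on both strands, allowing 2 mismatches over both copies, in the 250 bases before and 50 bases after the RefSeq start (GRCm38.p6). The stretches around the matches of 4 genes called higher are shown because each of these genes rose strongly, and that of Fabp1, which was not called, because its match has only 1 mismatch, as has that of Acot12, also not called. Capitals mark the match, and each sequence is given 5′ to 3′ along its gene.
Cd36 (chr5:17835927-17835979, minus strand): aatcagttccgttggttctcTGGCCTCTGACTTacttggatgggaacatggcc
Plin2 (chr4:86670252-86670304, minus strand): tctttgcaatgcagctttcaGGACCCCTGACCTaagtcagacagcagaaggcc
Mogat1 (chr1:78510989-78511041, plus strand): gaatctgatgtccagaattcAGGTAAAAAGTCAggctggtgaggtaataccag
Acot4 (chr12:84038346-84038378, plus strand): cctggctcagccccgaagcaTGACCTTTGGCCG
Fabp1 (chr6:71199792-71199844, plus strand): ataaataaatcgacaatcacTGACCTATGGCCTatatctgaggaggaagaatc
The matches lie at -63 to -51 from the start in Cd36, -225 to -213 in Plin2, -51 to -39 in Mogat1, -13 to -1 in Acot4 and -67 to -55 in Fabp1. A match at any RefSeq start was present in 4.06% of the 18718 listed genes with a promoter. It was present in 5.35% of 430 such genes called higher and in 5.69% of 123 called lower. Here and below each gene counts once, whatever its number of starts. The same was done over the 7 lists of fatty acid genes described here (omega-oxidation, oxidation, ketone bodies, thioesterases, droplets, uptake and synthesis). In these a match was present in 13.2% of 38 genes called higher and in 13.1% of 61 genes not called. The fifth match among the genes called higher, in Slc25a20, lies after the start. The 2 shares did not separate genes that rose from genes that were not called. A match is a description of the letters, not a binding site.

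Synthesis of fatty acids and triglycerides had more genes lower than higher. Of 23 tested genes, 7 were called lower and 1 higher (34.8%), and the median log2 fold change was -0.07, which turned to 0.02 with all libraries at the same sum. Many of these calls rested on single mice, and with 1 mouse left out 3 to 6 genes were lower. Srebf1, the gene of SREBP-1c, was at 82.8, 56.6, 58.6 and 36.1 RPKM on CD and at 39.6, 31.5, 24.0, 25.0 and 26.2 RPKM on HFD (log2 fold change -0.94 ± 0.31, adjusted p = 0.0369), and its call was lost without any of 7 of the 9 mice. Fasn, fatty acid synthase, was at 214, 199, 118 and 71.3 RPKM on CD and at 50.8, 65.4, 71.9, 68.8 and 66.7 RPKM on HFD (log2 fold change -1.09 ± 0.33, adjusted p = 0.0267), and its call was lost without CD mouse 1 or 2 or HFD mouse 1. Its CD mice 1 and 2 were high and CD mouse 4 was at the level of the HFD mice. The decreases that held with every mouse left out were those of Pnpla3, Mid1ip1 and Mlxipl. Pnpla3, a lipase-like protein of lipid droplets, was at 11, 12.9, 2.52 and 2.21 RPKM on CD and at 0.763, 0.636, 0.852, 0.884 and 1.90 RPKM on HFD (log2 fold change -1.75 ± 0.42, adjusted p = 0.00642). Mid1ip1, which activates acetyl-CoA carboxylase, was at 42.0, 44.3, 32.7 and 19.9 RPKM on CD and at 17.4, 13.6, 11.3, 11 and 13.8 RPKM on HFD (log2 fold change -1.26 ± 0.22, adjusted p = 7.76e-04). Mlxipl, the gene of ChREBP, fell by 0.67 on the log2 scale (adjusted p = 0.00366). The call of Acly was lost without any of 6 mice and that of Lpin1 without any of 7. Acaca, the cytosolic acetyl-CoA carboxylase, had a log2 fold change of -0.49 ± 0.15 and Acacb, the mitochondrial form, one of 0.14 ± 0.21, and neither was called.

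The single increase of this group was Mogat1, which makes diacylglycerol from monoacylglycerol, at 0.310, 0.397, 0.0708 and 0.588 RPKM on CD and at 4.31, 5.89, 5.34, 5.5 and 5.06 RPKM on HFD (log2 fold change 2.22 ± 0.24, adjusted p = 8.61e-06). Among 14 desaturases and elongases (21.4% called), Elovl5, which elongates polyunsaturated fatty acids, was higher, at 322, 397, 135 and 202 RPKM on CD and at 463, 471, 513, 549 and 585 RPKM on HFD (log2 fold change 1.08 ± 0.26, adjusted p = 0.00768). Hsd17b12, which acts in elongation, was also called higher, and Elovl6, which makes stearate from palmitate, was called lower (log2 fold change -1.02 ± 0.26, adjusted p = 0.01). Scd1, the desaturase that makes oleate, was at 3894, 3554, 1774 and 1861 RPKM on CD and at 1981, 2876, 3109, 4036 and 4095 RPKM on HFD and was not called (log2 fold change 0.26 ± 0.29, adjusted p = 0.575). CD mice 1 and 2 had high values of Scd1, as of Fasn, and the groups overlapped.

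Cholesterol synthesis and uptake had 3 genes called lower and 1 higher among 25 tested (16.0%), with a median of -0.21, and the count of lower genes was 0 to 4 with 1 mouse left out. Insig1, which holds SREBP proteins in the endoplasmic reticulum, was at 221, 224, 134 and 99.9 RPKM on CD and at 105, 93.3, 62.1, 64.9 and 92.3 RPKM on HFD (log2 fold change -0.96 ± 0.26, adjusted p = 0.0128), a call lost without CD mouse 2. CD mouse 2 had the highest values of the group, with a mean over the 25 genes 0.52 above the CD mean on the log2 scale. The CCAAT box, which SREBP-2 promoters often carry, was found on either strand in 94.1% of the 17 of these genes with a promoter. This compares with 42.2% of all listed genes with a promoter, a feature of the list that does not depend on the diet. The SREBP motif TCACNCCAC was found in only 1 of the 17 (5.88%), against 1.45% of all listed genes with a promoter. Of 15 genes of cholesterol efflux, 2 rose (13.3%), the phospholipid transporter Abcb4 (0.78 ± 0.14) and the ubiquitin ligase Mylip (0.76 ± 0.16), while the sterol transporter Abcg5 (-0.17 ± 0.21) was not called.

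In bile acid synthesis and transport, 3 of 23 tested genes were higher and 2 lower (21.7%). Cyp7b1, which hydroxylates oxysterols in the alternative pathway, was at 128, 138, 163 and 108 RPKM on CD and at 50.9, 21.5, 20.4, 36.1 and 31.2 RPKM on HFD (log2 fold change -2.09 ± 0.23, adjusted p = 1.11e-05). Cyp2c70, which makes muricholic acids, was at 287, 173, 286 and 208 RPKM on CD and at 64.3, 63.8, 53.2, 91.6 and 85.2 RPKM on HFD (log2 fold change -1.72 ± 0.21, adjusted p = 3.17e-05). Cyp8b1, which makes cholic acid, was called higher (log2 fold change 0.93 ± 0.24, adjusted p = 0.0102), with overlapping groups. Cyp7a1, the rate-limiting enzyme of the classical pathway, was at 39.7, 15.9, 25.7 and 25.2 RPKM on CD and at 21.7, 23.5, 12.0, 20.9 and 23.7 RPKM on HFD and was not called (log2 fold change -0.34 ± 0.25, adjusted p = 0.362). The basolateral exporter Abcc3 was at 11.9, 7.19, 10.6 and 18.4 RPKM on CD and at 48.6, 56.8, 57.9, 53.9 and 39.8 RPKM on HFD (log2 fold change 2.07 ± 0.22, adjusted p = 8.79e-06). Acnat2, an acyltransferase, rose by 2.27 on the log2 scale, and the uptake transporter Slc10a1 had a log2 fold change of -0.53 ± 0.14, under the fold threshold.

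Among 21 apolipoproteins and lipoprotein assembly genes, 2 rose and 2 fell (19.0%). Apoa4, which is carried on HDL and chylomicrons, was at 337, 561, 195 and 288 RPKM on CD and at 1456, 1882, 2369, 1692 and 1552 RPKM on HFD (log2 fold change 2.45 ± 0.34, adjusted p = 1.18e-04). Apoc2, the activator of lipoprotein lipase, was at 157, 194, 95.5 and 129 RPKM on CD and at 277, 328, 307, 241 and 241 RPKM on HFD (log2 fold change 0.99 ± 0.17, adjusted p = 5.58e-04). Apoa1, the main protein of HDL, was lower (log2 fold change -0.72 ± 0.15, adjusted p = 0.00276), a call lost after quantile normalization, and Apom, an HDL carrier of sphingosine-1-phosphate, was lower as well (log2 fold change -0.91 ± 0.17, adjusted p = 0.00102). Apob and Mttp, needed for VLDL, had log2 fold changes of 0.11 ± 0.09 and 0.19 ± 0.13 and were not called.

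Genes of the male liver fell widely in these male mice. Of 39 tested genes that are higher in male than in female mouse liver, 30 were called lower and none higher (76.9%), with a median log2 fold change of -2.08, and 27 to 31 were lower with 1 mouse left out. Many of the called genes and 7 of the 9 not called belong to the near-identical Mup family, whose reads were apportioned among its members. These genes are not separate observations, and the share and median without them were not computed. Mup20, a male pheromone, was at 11331, 15611, 20773 and 14415 RPKM on CD and at 7482, 5060.2, 4336, 3768 and 3086 RPKM on HFD (log2 fold change -1.74 ± 0.28, adjusted p = 3.91e-04). Together the list took 38528 to 50701 RPKM in CD mice and 9398 to 19994 RPKM in HFD mice, without overlap. Its mean over genes was lowest in HFD mouse 2, at -3.27 from the CD mean on the log2 scale, and highest in HFD mouse 1, at -1.53. Besides the Mup genes, Slco1a1, an organic anion importer, was at 154, 140.2, 135 and 114 RPKM on CD and at 48.4, 4.47, 5.52, 62.2 and 38.9 RPKM on HFD (log2 fold change -2.67 ± 0.55, adjusted p = 0.00246). Cyp2d9, a testosterone hydroxylase, was at 474, 576, 718 and 536 RPKM on CD and at 295, 187, 122, 271 and 316 RPKM on HFD (log2 fold change -1.34 ± 0.22, adjusted p = 4.91e-04). Gstp1, a glutathione transferase, was at 1129.9, 1556, 2025 and 997 RPKM on CD and at 712, 573, 461, 379 and 439 RPKM on HFD (log2 fold change -1.45 ± 0.27, adjusted p = 0.00112). Moxd1, a monooxygenase-like protein, was at 5.89, 24.7, 7.93 and 1.36 RPKM on CD and at 0 RPKM in all 5 HFD mice, at least 254-fold lower by the floor of 3 reads per library and at least 129-fold lower without CD mouse 2. The 9 genes that were not called were Elovl3, Cyp4a12a and 7 Mup genes. Their log2 fold changes ranged from -3.90 ± 2.06 for Mup8 to 2.22 ± 2.17 for Mup19, and those of Mup19 and Elovl3 (0.18 ± 0.36) were above 0. Mup19 was at 0.553, 0.255, 0.145 and 662 RPKM on CD and at 0.118, 35.4, 35.0, 147 and 91.2 RPKM on HFD, with 1 high CD mouse.

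Female-biased genes moved the other way. Of the 32 such genes listed, 14 passed the filter on low values, of which 9 were called higher and none lower (64.3%), with a median of 1.15. A gene silent on CD passed this filter only if it was high in other mice, so the count holds for genes that passed and not for all members. Cyp2a22 was at 0.976, 0.753, 0.892 and 1.09 RPKM on CD and at 8.01, 18.3, 16.6, 9.46 and 8.09 RPKM on HFD (log2 fold change 2.69 ± 0.21, adjusted p = 4.06e-07), and Cyp17a1, a steroid hydroxylase, was at 24.9, 19.4, 3.55 and 11.8 RPKM on CD and at 26.2, 49.0, 48.6, 61.4 and 39.5 RPKM on HFD (log2 fold change 1.74 ± 0.46, adjusted p = 0.012). Hao2, a peroxisomal hydroxyacid oxidase, was at 0.0153, 0, 0.0837 and 0.0386 RPKM on CD and at 1.13, 5.47, 1.19, 1.48 and 0.757 RPKM on HFD (log2 fold change 1.36 ± 0.25, adjusted p = 0.00118). Rtn4, Tox and the peroxisomal transporter Abcd2 were also higher, and Cyp2b9, Cyp2a4 and Acot3, given above, complete the 9. Fmo2, Atp6v0d2, Cyp2c40, Sult2a7 and Cyp2c69 were not called, Cyp2c69 with a log2 fold change of -1.32 ± 0.52. Of the 18 below the filter, Cyp2b13 was at 0.0166, 0, 0 and 0 RPKM on CD and at 0.0958, 4.41, 1.96, 0.718 and 0.304 RPKM on HFD, at least 20.9-fold higher by the floor of 3 reads and at least 10.8-fold higher without HFD mouse 2. Others were low on HFD as well, with Cyp3a16 at 0.0641 to 0.293 RPKM and the female-specific repressor Cux2 at 0.0220 to 0.0939 RPKM on HFD. Reads of Cyp2b13, Cyp2b9 and Cyp2b10 cannot be told apart with certainty.

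**Figure D3:**
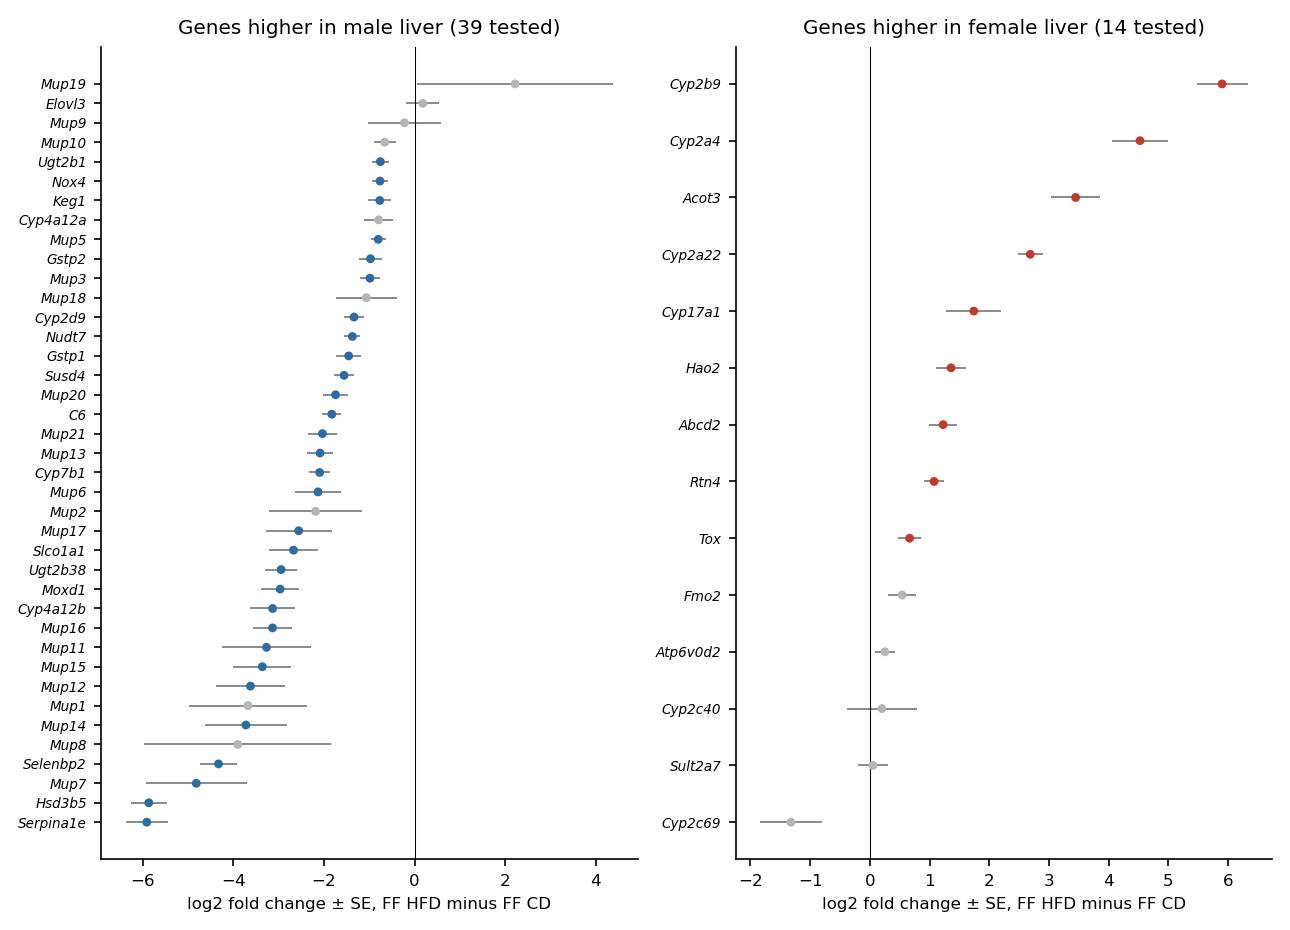
Log2 fold change of HFD over CD in FF mice, with its standard error, for the 39 tested genes higher in male liver (left) and the 14 higher in female liver (right), with called genes in colour (blue lower, red higher). On the left 30 genes lie below 0 and are called, down to Serpina1e at -5.91, and on the right 9 are called above 0, up to Cyp2b9 at 5.90.

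Of 22 tested genes of growth hormone signalling itself, 4 were called lower and 3 higher (31.8%). Ghr, the growth hormone receptor, was at 129, 122, 141 and 138 RPKM on CD and at 102, 96.0, 93.9, 99.5 and 97.9 RPKM on HFD, without overlap but under the fold threshold (log2 fold change -0.43 ± 0.09, adjusted p = 0.00255). Igf1, the main hormone made in response to growth hormone, was also without overlap (log2 fold change -0.35 ± 0.11, adjusted p = 0.0344) and not called. Stat5b had a log2 fold change of 0.16 ± 0.10 and overlapping groups. Stat5a was at 1.81, 2.10, 2.28 and 2.52 RPKM on CD and at 4.61, 4.26, 3.56, 3.75 and 4.24 RPKM on HFD (log2 fold change 0.68 ± 0.10, adjusted p = 2.61e-04). Bcl6, a repressor that is higher in male liver, was lower on HFD (log2 fold change -1.02 ± 0.32, adjusted p = 0.0313), a call lost without any of 5 mice. The STAT5 targets Socs2 (-0.64 ± 0.35) and Cish (0.31 ± 0.40) were not called. Egfr, the epidermal growth factor receptor, was at 65.0, 56.5, 86.4 and 69.7 RPKM on CD and at 14.4, 5.70, 12.7, 15.1 and 14.6 RPKM on HFD (log2 fold change -2.43 ± 0.25, adjusted p = 6.07e-06), with HFD mouse 2 the lowest. Igfbp2, an IGF-binding protein, fell by 1.6 on the log2 scale and Prlr, the prolactin receptor, rose by 1.14, both without overlap, a condition for naming them. Igfbp1, an IGF-binding protein raised in fasting, was higher in 4 of 5 HFD mice than in any CD mouse (log2 fold change 1.08 ± 0.30, adjusted p = 0.0151). The STAT motif TTCNNNGAA was present in 9.16% of all listed genes with a promoter, in 7.91% of those called higher and in 10.6% of those called lower.

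Of the xenobiotic P450 enzymes of families 1 to 3, with the receptors that control them, 5 of 35 tested genes rose and 4 fell (25.7%). This count leaves out P450 genes of other lists, such as Cyp2b9, Cyp2a4 and Cyp2a22, which rose, and Cyp2d9 and Cyp2c70, which fell. Cyp3a11, the main CYP3A of mouse liver, was at 269, 231, 356 and 328 RPKM on CD and at 644, 1196, 913, 914 and 753 RPKM on HFD (log2 fold change 1.56 ± 0.27, adjusted p = 7.47e-04). Cyp2c38 was at 8.74, 8.68, 4.30 and 11.3 RPKM on CD and at 35.6, 56.6, 52.6, 36.5 and 36.1 RPKM on HFD (log2 fold change 2.30 ± 0.23, adjusted p = 4.40e-06). Cyp3a59 rose by 1.78 and Cyp2c39 by 1.49 on the log2 scale. Nr1i3, the gene of the receptor CAR, was at 38.2, 25.5, 40.9 and 41.3 RPKM on CD and at 80.6, 83.1, 54.6, 74.3 and 71.0 RPKM on HFD (log2 fold change 0.99 ± 0.17, adjusted p = 7.46e-04). Cyp2b10, a target of CAR, was at 0 RPKM in every CD mouse and at 0.212, 0.919, 0.266, 0.951 and 0.754 RPKM on HFD, at least 9.77-fold higher by the floor of 3 reads, but was below the filter. Cyp1a2, which metabolizes caffeine, was at 226, 156, 194 and 208 RPKM on CD and at 93.4, 88.7, 94.2, 93.2 and 87.9 RPKM on HFD (log2 fold change -1.08 ± 0.14, adjusted p = 6.78e-05), and Cyp2c23, Cyp2c54 and Cyp2c67 were lower by 0.81 to 1.37. Cyp2e1, the abundant ethanol-oxidizing P450, had a log2 fold change of -0.02 ± 0.18.

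Of the 43 tested genes listed as conjugating enzymes, 12 rose and none fell (27.9%). This list leaves out conjugating enzymes counted among the male-biased genes. Of those, the glutathione transferases Gstp1 and Gstp2 and the glucuronide-forming Ugt2b1 and Ugt2b38 were called lower. Besides Gsta1, Gsta2 was at 3.21, 3.82, 5.28 and 3.60 RPKM on CD and at 14.1, 24.7, 22.0, 7.57 and 16.3 RPKM on HFD (log2 fold change 1.77 ± 0.36, adjusted p = 0.00248), and Gstm3 at 15.6, 15.4, 8.30 and 9.07 RPKM on CD and at 27.9, 58.8, 96.7, 25.0 and 35.3 RPKM on HFD (log2 fold change 1.79 ± 0.32, adjusted p = 9.71e-04). The abundant Gstm1 was at 413, 352, 389.8 and 346 RPKM on CD and at 736, 996, 1072, 616 and 659 RPKM on HFD (log2 fold change 1.09 ± 0.17, adjusted p = 3.16e-04). HFD mice 2 and 3 had the highest values of Gsta1, Gstm1 and Gstm3. Among 28 genes of the NRF2 antioxidant response, 7 rose and none fell (25.0%), with a median of 0.33. Nqo1, a quinone reductase, was at 2.51, 1.49, 1.29 and 1.55 RPKM on CD and at 7.32, 8.43, 7.59, 4.67 and 6.51 RPKM on HFD (log2 fold change 1.54 ± 0.17, adjusted p = 1.29e-05). Ephx1, microsomal epoxide hydrolase, Aox1, aldehyde oxidase, and Srxn1, sulfiredoxin, rose by 1.31, 1.18 and 1.10 on the log2 scale. Nfe2l2, the gene of NRF2, had a log2 fold change of 0.34 ± 0.13 and was not called.

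Organic ion and ABC transporters had 6 genes higher and 3 lower among 29 tested (31.0%), without transporters of other lists such as Slco1a1, which fell, and Abcc3, which rose. Slc22a27, an organic anion transporter, was at 0.210, 0.284, 0.0690 and 0.295 RPKM on CD and at 5.72, 15.4, 9.57, 6.01 and 7.32 RPKM on HFD (log2 fold change 2.93 ± 0.25, adjusted p = 1.02e-06). Slc22a5, the carnitine importer, was at 5.75, 5.46, 4.51 and 5.28 RPKM on CD and at 14.9, 17.2, 11.1, 18.1 and 13.7 RPKM on HFD (log2 fold change 1.34 ± 0.18, adjusted p = 9.10e-05). Slc16a7, a monocarboxylate transporter, rose by 1.17, and Slc22a28 fell by 1.48. Of 27 metabolic nuclear receptors and coregulators, 3 rose and none fell (11.1%). Pparg, the adipogenic PPARγ, was at 2.39, 2.23, 1.62 and 3.14 RPKM on CD and at 4.54, 9.02, 10.4, 7.46 and 8.58 RPKM on HFD (log2 fold change 1.41 ± 0.25, adjusted p = 8.33e-04). Nr1i3 and Rxrg (0.74 ± 0.15), a partner receptor of low expression, were the others. Of 26 retinoid genes 4 rose and 1 fell (19.2%), with Aldh1a1, a retinal dehydrogenase, at 305, 260.4, 138 and 206 RPKM on CD and at 618, 585, 529, 434 and 449.6 RPKM on HFD. Of 13 hydroxysteroid dehydrogenases and reductases 3 fell (23.1%), but 1 without CD mouse 4 and 1 with all libraries at the same sum, among them the steroid 5-alpha-reductase Srd5a1 (-0.81 ± 0.17). Hsd3b5, given above with a log2 fold change of -5.86, was counted among the male-biased genes and is not one of the 13. Of 21 iron genes 2 were called (9.52%, near the 6.60% of all tested genes): the ferritin heavy chain Fth1 rose (0.78 ± 0.11), and the iron hormone hepcidin, Hamp, fell, at 769, 559, 1194 and 1334 RPKM on CD and at 244, 433, 189, 275 and 565 RPKM on HFD (log2 fold change -1.53 ± 0.35, adjusted p = 0.00479). Of 20 metallothioneins and zinc transporters, Mt1 and Mt2, which bind zinc and copper, rose (10.0%). Mt2 was at 0.729, 1.51, 0.384 and 1.84 RPKM on CD and at 13.1, 20.6, 19.5, 21.8 and 6.63 RPKM on HFD (log2 fold change 2.99 ± 0.63, adjusted p = 0.00299).

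Secreted defence proteins fell in several families. Of 18 tested serpins, 6 were lower and 2 higher (44.4%), with a median of -0.26. Beside Serpina1e, its near-identical relatives Serpina1c (-0.84 ± 0.16) and Serpina1a (-0.60 ± 0.11) were called lower, while Serpina1b (-0.11 ± 0.11) and Serpina1d (-0.44 ± 0.13) were not. Serpinh1, a chaperone of collagen, rose, at 2.32, 2.53, 1.63 and 2.36 RPKM on CD and at 4.58, 5.68, 5.33, 5.53 and 4.23 RPKM on HFD (log2 fold change 0.92 ± 0.17, adjusted p = 9.15e-04). Of 37 complement and coagulation genes, 9 were lower and none higher (24.3%), with a median of -0.17 (6 to 10 with 1 mouse left out). The terminal complement complex, which makes pores in membranes, held 3 of them. C8b was at 139.8, 136, 148 and 133 RPKM on CD and at 38.3, 17.0, 19.1, 39.6 and 33.1 RPKM on HFD (log2 fold change -2.29 ± 0.20, adjusted p = 1.21e-06). C8a was at 171, 219, 187 and 159 RPKM on CD and at 101, 65.5, 88.6, 105 and 68.9 RPKM on HFD (log2 fold change -1.11 ± 0.16, adjusted p = 1.35e-04), and C9 was at 241, 267, 246 and 172 RPKM on CD and at 148, 127, 138, 112 and 108 RPKM on HFD (log2 fold change -0.86 ± 0.16, adjusted p = 0.00141). C6, counted here among the male-biased genes, completes this group (log2 fold change -1.83 ± 0.21, adjusted p = 1.52e-05). C4a, of the classical pathway, was also lower (-1.54 ± 0.42), and the central component C3 had a log2 fold change of -0.01 ± 0.20.

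Acute phase proteins had calls in both directions, with 4 of 31 tested genes higher, 2 lower (19.4%) and a median of 0.14. Serpina3k, an abundant antichymotrypsin, was at 5549, 5785, 5043 and 3880.2 RPKM on CD and at 2394, 1289, 1444, 3199 and 2636 RPKM on HFD (log2 fold change -1.28 ± 0.22, adjusted p = 6.68e-04). Il1rn, the interleukin-1 receptor antagonist, was at 0.359, 0.341, 0.349 and 0.674 RPKM on CD and at 2.07, 2.95, 3.13, 2.44 and 2.45 RPKM on HFD (log2 fold change 1.33 ± 0.17, adjusted p = 4.63e-05). Saa1, the classical marker of the hepatic acute phase, was at 178, 973, 20.3 and 13.3 RPKM on CD and at 608, 89.6, 108, 73.4 and 105 RPKM on HFD. CD mouse 2 and HFD mouse 1 were high for Saa1, and it was not called (log2 fold change 0.68 ± 1.14, adjusted p = 0.723).

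Of 39 genes of glucose metabolism, 3 were higher and 3 lower (15.4%), and 3 were called without CD mouse 3. Pfkfb3, which raises glycolytic flux, was at 9.06, 6.01, 4.46 and 3.73 RPKM on CD and at 1.14, 2.16, 2.44, 2.50 and 2.35 RPKM on HFD (log2 fold change -1.09 ± 0.19, adjusted p = 8.03e-04). Pkm, the pyruvate kinase of non-hepatocyte cells and growing tissue, was at 3.20, 3.23, 2.70 and 2.73 RPKM on CD and at 4.04, 7.04, 8.86, 5.88 and 5.63 RPKM on HFD (log2 fold change 0.85 ± 0.16, adjusted p = 0.00159). G6pc, glucose-6-phosphatase, was at 253, 221, 256 and 197 RPKM on CD and at 141, 133, 149, 201 and 207 RPKM on HFD (log2 fold change -0.49 ± 0.16, adjusted p = 0.0383). Pck1, phosphoenolpyruvate carboxykinase, had a log2 fold change of -0.14 ± 0.24, with overlapping groups, and neither was called. Of 22 insulin signalling genes, only Mtor was called (log2 fold change 0.67 ± 0.15, adjusted p = 0.00397), a call lost with each library centred on its median. None of the 17 tested subunits of protein phosphatase 6, of AMPK and of their relatives was called, although 3 of them had an adjusted p under 0.05. One was Prkaa2, the AMPK subunit α2, at 8.23, 7.36, 10.8 and 7.66 RPKM on CD and at 6.33, 7.17, 6.25, 6.75 and 7.05 RPKM on HFD (log2 fold change -0.29 ± 0.10, adjusted p = 0.0418). Prkaa1, the subunit α1, had a log2 fold change of 0.07 ± 0.08, and Ppp6c, the catalytic subunit, one of -0.11 ± 0.10. Of 37 sphingolipid genes, 10 rose and none fell (27.0%), most by less than 1 on the log2 scale. Hexa, of lysosomal hexosaminidase, rose by 1.07, and Acer2, a ceramidase, was at 1.26, 1.16, 1.09 and 1.65 RPKM on CD and at 2.12, 3.97, 3.32, 5.0 and 3.41 RPKM on HFD (log2 fold change 0.97 ± 0.15, adjusted p = 3.51e-04).

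Stress and growth arrest genes changed selectively. Of 39 genes of the unfolded protein and integrated stress responses, 4 were lower and 2 higher (15.4%). Xbp1, a transcription factor of the unfolded protein response, was lower (log2 fold change -0.67 ± 0.16, adjusted p = 0.00746), and Hspa5, the main chaperone of the endoplasmic reticulum, was not called (log2 fold change -0.56 ± 0.25, adjusted p = 0.129). Gdf15, a stress hormone, was at 0.505, 0.259, 0.185 and 0.128 RPKM on CD and at 2.92, 1.45, 1.3, 2.22 and 1.03 RPKM on HFD (log2 fold change 1.10 ± 0.27, adjusted p = 0.00805). Of 21 p53 and growth arrest genes 6 rose and none fell (28.6%). Cdkn1a, the gene of the cell cycle inhibitor p21, was at 0.352, 0.667, 0.147 and 0.174 RPKM on CD and at 2.15, 6.73, 6.68, 4.87 and 2.82 RPKM on HFD (log2 fold change 2.01 ± 0.23, adjusted p = 1.29e-05). Plk3, a stress-activated kinase, and Btg2, an antiproliferative gene, rose by 1.16 and 0.90. Of 16 tested cell cycle genes 4 rose (25.0%), a count that was 2 without HFD mouse 2, 3 or 5, 2 with median centring or quantile normalization and 7 with all libraries at the same sum. They were Ccnd1, the gene of cyclin D1, whose call was lost without any of 5 mice, and the DNA replication helicase subunits Mcm2, Mcm3 and Mcm4. Mcm2 was at 0.610, 1.02, 0.368 and 0.351 RPKM on CD and at 1.61, 2.27, 1.72, 1.06 and 1.40 RPKM on HFD (log2 fold change 0.72 ± 0.15, adjusted p = 0.00241). Mki67, the proliferation marker, was below the filter, at 0.0636 to 0.129 RPKM on CD and 0.175 to 0.503 RPKM on HFD.

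Genes of the clock, of liver zonation, of the ribosome and of the respiratory chain gave few calls. Among 20 circadian clock genes only Lpin1 was called, counted above with lipid synthesis and lost without any of 7 mice, and Per2 (-0.31 ± 0.11) and Nr1d1 (-0.27 ± 0.19) were not. The sources used here give no time of liver collection or feeding state, on which genes of the clock and of fasting depend. Of 24 pericentral genes 1 was called higher, and none without CD mouse 3, CD mouse 4 or HFD mouse 3 or with median centring or quantile normalization, and glutamine synthetase, Glul, had a log2 fold change of 0.20 ± 0.13. Of 35 urea cycle and periportal genes 3 were lower and 1 higher (11.4%). Cps1, the first enzyme of the urea cycle, was at 471, 435, 634 and 440.1 RPKM on CD and at 192, 197, 148, 285 and 237 RPKM on HFD (log2 fold change -1.24 ± 0.18, adjusted p = 1.57e-04). The next enzymes Otc (-0.15 ± 0.12), Ass1 (-0.32 ± 0.24) and Arg1 (-0.07 ± 0.13) were not called. None of 81 cytosolic ribosomal protein genes was called (3 called with median centring and 1 without CD mouse 4), but 80 of them had a negative log2 fold change, with a median of -0.34 and 30 with an adjusted p under 0.05. The median remained negative under each scaling (-0.43 with median centring, -0.32 after quantile normalization and -0.25 with all libraries at the same sum). None of 77 respiratory chain genes was called, with a median of 0.02 that turned to -0.07 with median centring.

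Of 40 tested genes listed with actins, tubulins, annexins and S100 proteins, 13 rose and 1 fell (35.0% called), with a median of 0.44. Lgals1, galectin-1, was at 7.48, 10.2, 4.22 and 8.62 RPKM on CD and at 46.9, 73.2, 75.7, 42.5 and 52.0 RPKM on HFD (log2 fold change 2.79 ± 0.35, adjusted p = 4.61e-05). Anxa2, annexin A2, was at 4.47, 5.14, 4.20 and 4.25 RPKM on CD and at 10.3, 25.9, 32.1, 15.4 and 20 RPKM on HFD (log2 fold change 1.89 ± 0.28, adjusted p = 1.58e-04). S100a10, its binding partner, was at 56.4, 86.2, 22.5 and 47.6 RPKM on CD and at 157, 147, 153, 134 and 152 RPKM on HFD (log2 fold change 1.61 ± 0.30, adjusted p = 0.00113). Tubb2a, a beta-tubulin, was at 16.1, 27.2, 5.97 and 5.30 RPKM on CD and at 26.7, 35.3, 132, 40.8 and 39.1 RPKM on HFD (log2 fold change 1.96 ± 0.49, adjusted p = 0.00891), highest in HFD mouse 3. Actb, cytoplasmic actin, had a log2 fold change of 0.06 ± 0.12.

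Many of these genes are also expressed by macrophages and fibroblasts, and some markers of the other cells of the liver were called higher on HFD. Of 18 markers of sinusoidal endothelium, 10 were called higher and none lower (55.6%, against 6.60% of all tested genes). The count was 4 to 14 with 1 mouse left out, the fewest without CD mouse 2. The summed level of these markers was 48.1 to 102.4 RPKM on CD and 109.4 to 181.7 RPKM on HFD. Pecam1, an adhesion protein of endothelial cells, was at 2.95, 1.16, 1.85 and 2.47 RPKM on CD and at 4.26, 6.02, 6.06, 7.49 and 4.12 RPKM on HFD (log2 fold change 1.09 ± 0.19, adjusted p = 8.25e-04). Of 18 Kupffer cell and macrophage markers, 7 were called higher and none lower (38.9%). The count was 2 to 14 with 1 mouse left out, the fewest without CD mouse 3. It was 12 with all libraries at the same sum and 4 with median centring or quantile normalization. Each of these 18 markers overlapped between diets, unlike 18.3% of all tested genes. The summed level of the 18 markers was 128.3 to 178.1 RPKM on CD and 149.9 to 324.3 RPKM on HFD, lowest in HFD mouse 1, at the level of the CD mice. Clec4f, which is restricted to Kupffer cells, was at 19.2, 17.3, 13.8 and 15.1 RPKM on CD and at 16.3, 23.7, 24.1, 31.9 and 23.6 RPKM on HFD (log2 fold change 0.50 ± 0.19, adjusted p = 0.0624). Of 20 tested markers of stellate cells and fibroblasts, 6 were higher and none lower (30.0%), all but Tagln being collagens. Col3a1 was at 2.60, 3.54, 3.66 and 4.56 RPKM on CD and at 6.42, 14.7, 11.7, 8.57 and 8.07 RPKM on HFD (log2 fold change 1.21 ± 0.27, adjusted p = 0.00452). Their summed level was 140.2 to 213.6 RPKM on CD and 188.9 to 281.9 RPKM on HFD. In bulk tissue, more cells of a type and more RNA per cell cannot be told apart.

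Of markers of rarer cells, 3 of 15 lymphocyte genes and 2 of 9 neutrophil genes passed the filter, with S100a9 the only call (log2 fold change 0.77 ± 0.21, adjusted p = 0.0133), lost without CD mouse 2. Of 5 tested markers of monocyte-derived macrophages Lgals3 and Ccl2 rose and Fabp5 fell, while Trem2 (0.236 to 1.57 RPKM on HFD) and Gpnmb (0.0926 to 1.13 RPKM on HFD) were below the filter. Tff3, a trefoil factor counted here as a marker of bile duct cells, fell (log2 fold change -2.28 ± 0.60, adjusted p = 0.0124), a call lost without CD mouse 2, without a call for Epcam. Of 8 erythroid genes in the data 7 were tested and none was called, and Cela1 was the only tested acinar marker (log2 fold change -1.08 ± 0.29, adjusted p = 0.0148, lost without CD mouse 1). Of 10 hepatocyte markers, Apoa1, Cps1 and Ahsg were lower (30.0% called) and Alb (0.22 ± 0.14) and Ttr (0.11 ± 0.09) were not called. The part of these shifts in the results of the other lists was not tested.

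**Figure D4:**
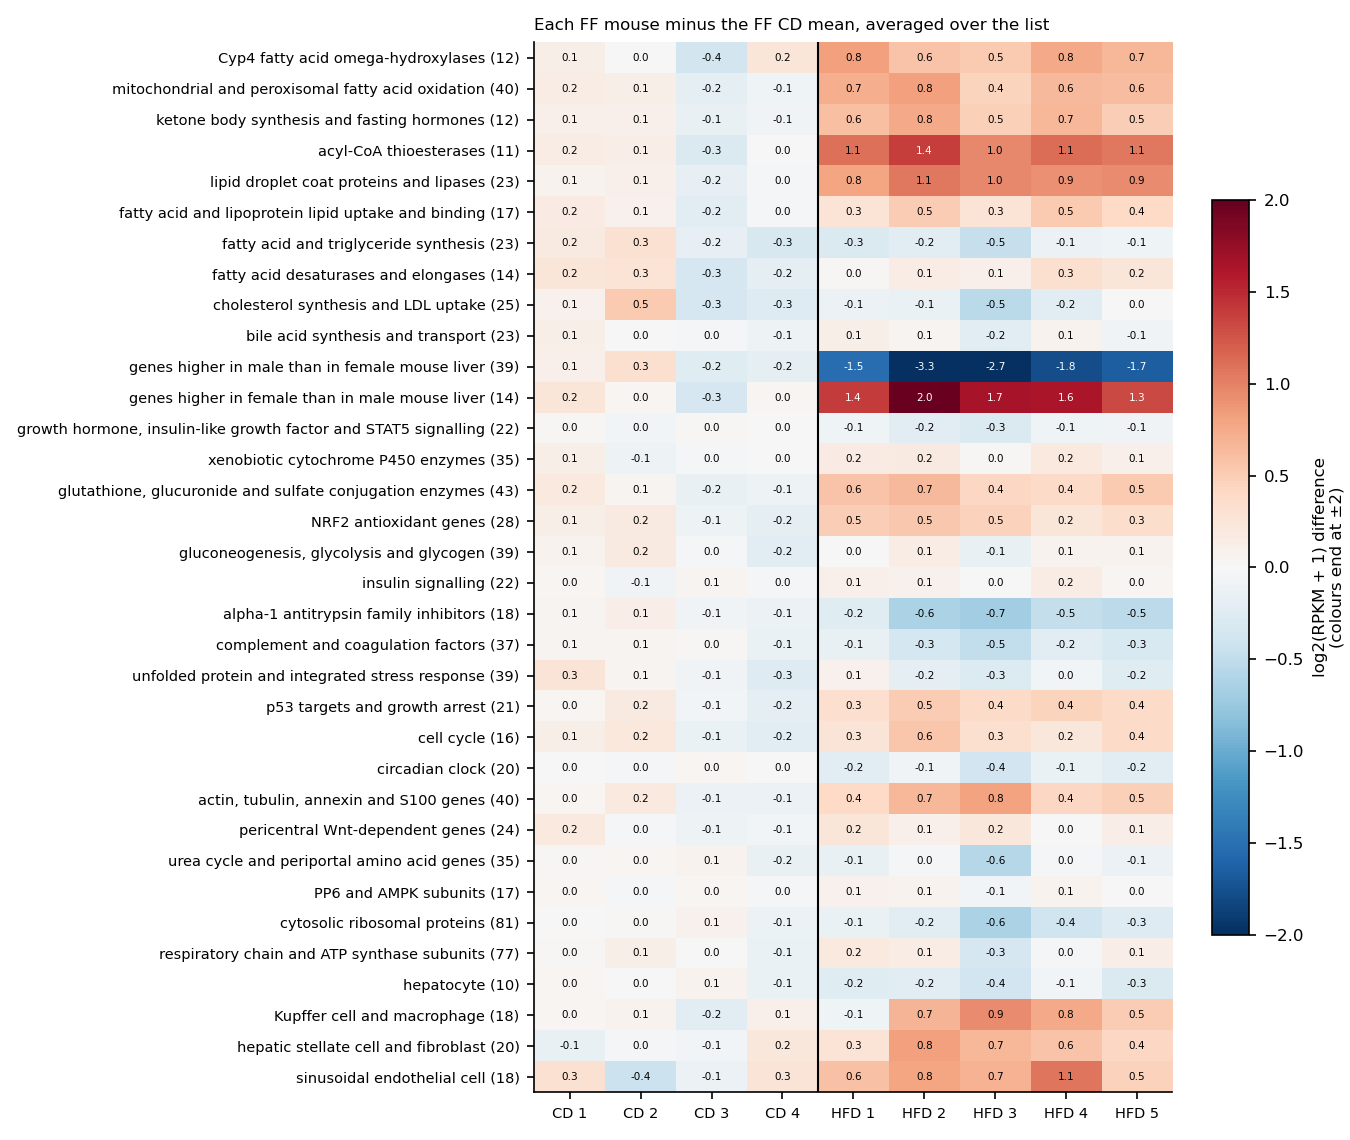
Each cell gives the mean, over the tested genes of a list (number in brackets), of the difference of 1 FF mouse from the CD mean in log2(RPKM + 1), for the 4 CD and the 5 HFD mice. Male-biased genes are lowest in HFD mice 2 and 3 (-3.27 and -2.68), ribosomal and periportal genes are lowest in HFD mouse 3, and Kupffer cell markers of HFD mouse 1 are at the level of the CD mice.

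The responses of FF and LKO mice were compared in the same model, with no mice shared between them. In 271 genes (2.44% of those tested) the response differed, and 217 of these were among the 732 genes called in FF mice (29.6%). The tested difference contains the FF response itself, which raises the share among genes called in FF mice. The response was larger in size in FF mice in 240 of the 271. Of the 116 named genes 51 differed, a count raised by the choice of many of them for a large response in FF mice, so that it cannot be set against 2.44%. Among the male-biased genes Hsd3b5 fell in FF mice by 5.86, against a log2 fold change of -0.01 in LKO mice (difference -5.86 ± 0.56, adjusted p = 1.76e-05), and Selenbp2 and Serpina1e had positive log2 fold changes in LKO mice (1.88 and 1.28). On CD the means of these 2 genes were lower in LKO than in FF mice, at 23.5 against 149 RPKM for Selenbp2 and 746 against 3777 RPKM for Serpina1e. Among the fatty acid genes Cyp4a14 differed by 5.26 ± 0.72 (adjusted p = 4.75e-04), Cd36 by 3.30 ± 0.53 (adjusted p = 0.00186) and Cidec by 2.95 ± 0.61 (adjusted p = 0.0114). A smaller response of LKO mice did not always go with a low level on HFD. Cyp4a14 had means of 127 RPKM on CD and 177 RPKM on HFD in LKO mice, against 5.18 and 266 RPKM in FF mice. Cyp4a10 had means of 147 RPKM on CD and 132 RPKM on HFD in LKO mice, against 21.9 ± 11.9 RPKM (SD, n = 4) on CD in FF mice, so that its LKO level on CD was above every FF mouse on CD. Cd36 had means of 13.3 and 20.2 RPKM in LKO mice, both below every FF mouse on HFD. For Mt1 the log2 fold change was 2.84 in FF and 2.93 in LKO mice, and the large standard error of the difference (-0.09 ± 0.87, adjusted p = 0.971) does not show that they were the same. No difference was called for Pnpla3 (-1.75 and -1.63) or Fasn (-1.09 and -1.06) either.

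**Figure D5:**
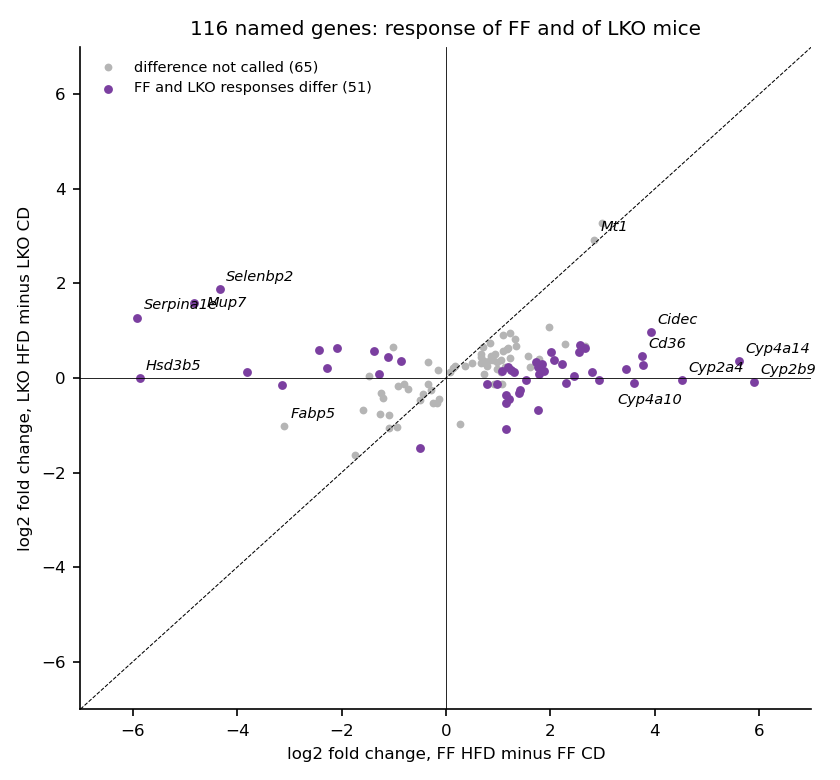
Log2 fold change of HFD over CD in FF mice (x axis) and in LKO mice (y axis) for the 116 named genes, where the dashed line marks equal responses. The 51 genes whose responses differ (purple) lie mostly near 0 on the LKO axis, such as Hsd3b5 and Cyp2b9, while Mt1 lies near the dashed line.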

How the data were processed

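Livers of 18 male mice were profiled by RNA-seq, 1 library each, from RNA extracted with Trizol. The submitters' processing notes name HISAT2 2.0.4, Partek and the mm10 build. The authors deposited 1 table of RPKM per mouse, in which values far below that of 1 read, down to 1.2e-25 RPKM for Xist, show that reads had been split among genes, and the annotation used for counting is not given in the sources used here. The depth of each library was estimated from the steps between low values of single-exon genes. In FF mice 36.0% to 46.5% of those values then fell within 0.03 of a whole number of reads, so read numbers are estimates, and floors of 3 reads cover counting error only.

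From these RPKM the log2 values (pseudocount 1) of genes with a mean of at least 0.5 were fitted by limma 3.58.1 (R 4.3.3, trended, moderated) with 4 group terms over the 18 mice. Contrasts were HFD minus CD in FF mice and its difference from the same contrast in LKO mice, with Benjamini-Hochberg adjustment, fold above 1.5 and adjusted p under 0.05. The method was tested on simulated data. Tables were made with Python 3.11.15, pandas 2.3.3 and matplotlib 3.10.9. Gene positions come from GENCODE (GRCm38) and promoters from RefSeq. The gene lists and their members were chosen with earlier results of these data known, so counts over a list describe it and are no independent test. Named genes were the 5 largest changes in each direction, up to 3 per list (called in every leave-one-out, no overlap, mean RPKM of at least 1) and 25 fixed genes, and other members are named for their values. The labels give no batch, and do not say that replicate numbers pair the mice. The p-values treat the mice as independent, and an unrecorded batch that went with the diet could not be told apart from it. Alternatives were other filters, pseudocounts, scalings, no moderation, only FF mice, a replicate block, voom on estimated reads and leaving out each mouse. Some members of the lists are counted but not reported here by name.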

Additional observations from a re-analysis of the deposited data

Results flagged for a closer look

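Of 240 groups of values examined, 13 held 1 mouse separated from the others by a gap above the 95% critical value of Dixon's test, which chance gives in about 1 group in 20. On CD these were Serpina1e in mouse 3 (5356 RPKM, the highest), Cyp2b9 in mouse 1 (0 RPKM, the lowest), Cidea in mouse 2 (0.0686 RPKM, the highest), Il1rn in mouse 4 (0.674 RPKM, the highest) and Nr1i3 in mouse 2 (25.5 RPKM, the lowest). On HFD they were Pnpla3 in mouse 5 (1.90 RPKM, the highest), Egfr in mouse 2 (5.70 RPKM, the lowest), Igfbp2 in mouse 3 (24.3 RPKM, the lowest) and Pfkfb3 in mouse 1 (1.14 RPKM, the lowest). Apoa1 in mouse 4 (3672 RPKM), Fasn in mouse 1 (50.8 RPKM) and Cyp7a1 in mouse 3 (12.0 RPKM) also stood apart on HFD, as did the depth of the library of mouse 1 (an estimated 37.0 M reads).

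For 51 named genes the response to HFD differed between FF and LKO mice by the test of the difference itself, given here as the FF response minus the LKO response on the log2 scale. Many of these genes were named for a large response in FF mice, which raises this number. The most negative differences were those of Serpina1e at -7.19, Mup7 at -6.40, Selenbp2 at -6.21, Hsd3b5 at -5.86, Serpina4-ps1 at -3.95, Egfr at -3.03, Cyp4a12b at -2.99 and Cyp7b1 at -2.72. The complement genes C8b (-2.50), C8a (-1.56) and C9 (-1.22) and the serpins Serpine2 (-1.94) and Serpina3k (-1.36) followed. Among P450 enzymes the differences were 5.99 for Cyp2b9, 5.26 for Cyp4a14, 4.58 for Cyp2a4, 3.71 for Cyp4a10, 2.40 for Cyp2c38 and 1.69 for Cyp3a59.

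For fatty acid genes they were 3.30 for Cd36, 3.26 for Acot3, 2.95 for Cidec, 2.03 for Acot2, 1.99 for Plin4, 1.93 for Mogat1, 1.87 for Acot1, 1.68 for Acaa1b, 1.54 for Pex11a, 1.52 for Crat and 1.39 for Pdk4. In conjugation, antioxidant defence and transport they were 3.51 for Gsta1, 2.98 for Slc22a27, 2.45 for Gsta2, 1.69 for Abcc3, 1.57 for Nqo1, 1.18 for Ephx1 and 0.94 for Aox1. Apolipoprotein genes differed by 2.41 (Apoa4) and 1.11 (Apoc2), the nuclear receptor Pparg by 1.72, and the retinoid genes Rdh16 and Aldh1a1 by 1.67 and 1.07. The remaining values were 2.67 for Lgals1, 2.24 for Plk3, 1.74 for Anxa2, 1.66 for Col3a1, 1.51 for Col1a1, 1.45 for Cdkn1a, 0.99 for G6pc, 0.92 for Hexa and 0.90 for Fth1. FF and LKO mice differed on CD for some of these genes, as in Serpina1e (mean 746 RPKM in LKO and 3777 ± 1055 RPKM in FF mice), and the part of that in the differences was not tested.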

How the results depend on the processing

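The count of 732 called genes was 646 to 891 with a filter at 1 RPKM, no filter, only FF mice, no moderation and 3 scalings, and rose to 1254 (1038 higher) with a pseudocount of 0.1, to 1268 (1034 higher) with voom on estimated reads and to 2287 (1756 higher, 531 lower) by adjusted p alone. With 1 mouse left out it was 605 (without CD mouse 3) to 802 (without HFD mouse 1), with 464 to 612 genes higher and 136 to 205 lower. The 271 differences between FF and LKO responses became 169 without a filter, 167 without moderation, 411 with all libraries at the same sum, 371 with voom (chosen after seeing the data) and 156 (without CD mouse 3) to 321 (without HFD mouse 1) with 1 mouse left out. The median log2 fold change of 0.07 became -0.0201 with median centring, -0.0247 after quantile normalization and 0.14 at the same sum, and was 0.06 to 0.10 with 1 mouse left out.

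The correlation of deviations of same-numbered FF mice was 0.197, 0.011, -0.073 and 0.015. Between mice of different numbers it was -0.350 to 0.386, so these values cannot show whether replicate numbers pair the mice. The fit with the replicate block called 789 genes. Over the named genes, 3 small changes turned in sign: Prkaa1 to -0.0224 with centring and -0.0200 after quantile normalization, Acacb to -0.0409 without HFD mouse 4 (up to 0.243 without HFD mouse 1) and Pck1 to 0.0535 without HFD mouse 1 (down to -0.328 without HFD mouse 4). Of the values of named genes under the other settings, 1148 kept direction and side of the thresholds and 10 lost the call, and with 1 mouse left out 1025 did, 16 lost the call and 1 gained it. Fasn, Srebf1 and Bcl6 were not called without a filter or without moderation. Reads of near-identical genes and values near 3 reads limit the folds of low genes.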

Other observations

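Outside all lists, 454 genes were called, and those with large changes are given here, chosen after their values were seen. Angptl8, a secreted inhibitor of lipoprotein lipase that is made after feeding, was at 48.8, 36.3, 21.0 and 24.7 RPKM on CD and at 15.4, 10.6, 10.4, 6.21 and 7.98 RPKM on HFD (log2 fold change -1.58 ± 0.27, adjusted p = 6.59e-04). Enho, which encodes the peptide adropin, was at 2.10, 3.33, 5.79 and 2.50 RPKM on CD and at 1.22, 0.185, 0.275, 0.376 and 0.477 RPKM on HFD (log2 fold change -1.53 ± 0.31, adjusted p = 0.00201). The carboxylesterase Ces3b (log2 fold change -1.51), the adhesion gene Cadm4 (-1.48), the actin regulator Carmil1 (-1.42), Hes6 (-1.36) and the ribonuclease Ang (-1.20) were also lower.

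Vnn1, a pantetheinase of liver, was at 11.3, 10.3, 3.57 and 13.7 RPKM on CD and at 70.9, 75.3, 75.5, 60.4 and 58.3 RPKM on HFD (log2 fold change 2.80 ± 0.29, adjusted p = 7.19e-06). Gpat3, an acyltransferase of triglyceride synthesis, was at 0.238, 0.555, 0.312 and 1.15 RPKM on CD and at 6.57, 9.11, 6.53, 7.94 and 6.81 RPKM on HFD (log2 fold change 2.45 ± 0.27, adjusted p = 9.94e-06), unlike the synthesis genes that were lower. The monocarboxylate transporter Slc16a5 rose by 2.62 on the log2 scale, Ly6d by 2.59, Wfdc2 by 2.33, Raet1d, a ligand of an activating receptor of natural killer cells, by 2.31, Gm3776, a glutathione transferase gene next to Gsta1, by 2.68, and 2010003K11Rik by 2.22.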
